A study of Nothobranchius furzeri with 20 samples.

Results

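Livers of 5 male turquoise killifish (Nothobranchius furzeri) at 10 weeks of age were set against livers of 5 males at 5 weeks, chosen by the age label out of 20 liver libraries that also cover 7 and 14 weeks with 5 fish each. All fish of both ages were of strain GRZ, a highly inbred and short-lived laboratory line, and the labels name no treatment. The comparison asks which liver transcripts distinguish young fish from adults. Each library has its own number, but nothing states that each came from a separate animal, so the p-values refer to the spread among these libraries, which may in part be technical. The sample titles carry numbers from 57 to 62 at 10 weeks and from 17 to 35 at 5 weeks. What these numbers stand for is not given in the sources used here, and an order of handling that followed them cannot be told apart from age.

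The turquoise killifish is an annual fish of temporary ponds that grows and matures quickly after hatching, so the younger age lies near the growth phase and the older one in adult life. The liver makes most plasma proteins and lipoproteins, stores glycogen and fat and clears nutrients and waste from the blood. A small number of transcripts for secreted proteins usually makes up a large share of its messenger RNA. The deposited tables name genes by identifiers of the form Nfu_g_1_ with a number, and no file used here pairs these with symbols (0 of 26739 matched the reference table), so no gene function is stated and the tissue could not be checked against liver markers. In bulk tissue, fewer cells of a type and less RNA per cell cannot be told apart, which applies to all levels below.

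The libraries held 24330529 to 42886761 read counts at 10 weeks and 22529235 to 32050062 at 5 weeks. Levels are read counts scaled to a common library size (CPM) and adjusted by the trimmed mean of M-values (TMM), and 3 reads were worth 0.0593 to 0.146 CPM at 10 weeks and 0.0864 to 0.141 CPM at 5 weeks. The library labelled 5-week fish 3 stood closer to the 10-week fish than to its own age, as described further on. Counts of called and of separated genes and the calls by abundance class are therefore also given without it.

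Between 10 and 5 weeks, 151 genes rose and 90 fell out of 15613 tested (241 genes, 1.54%; 0.967% higher and 0.576% lower; edgeR quasi-likelihood test, Benjamini-Hochberg adjusted p under 0.05). The changes were large where they were called. The median rise was 1.71 on the log2 scale and the median fall was -2.12, while the median absolute change over all tested genes was 0.358. A change of at least 2-fold was fitted for 139 of the 151 rises and 87 of the 90 falls, and of at least 4-fold for 62 rises and 51 falls. Over all tested genes, 15.2% reached a fitted change of 2-fold and 3.58% one of 4-fold. The smallest adjusted p in either direction was 0.0103, and 3326 genes had an unadjusted p under 0.05.

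**Figure D1:**
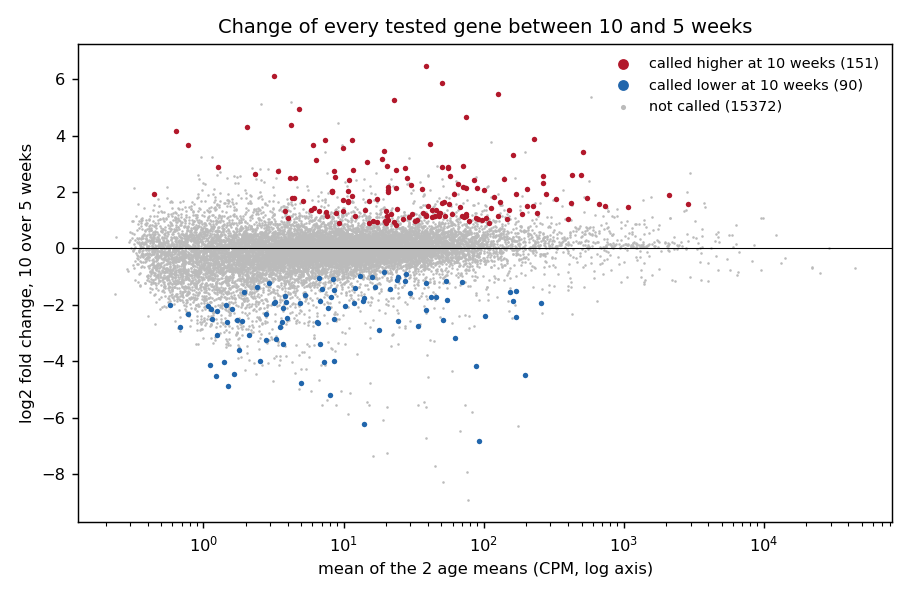
Log2 fold change of 10 over 5 weeks (vertical axis) against the mean of the age means in CPM (horizontal log axis) for 15613 tested genes, with the 151 genes called higher in red, the 90 called lower in blue and the others in grey. The called rises reach into the abundant genes, while most falls of 16-fold or more (log2 of -4 and below) were not called.

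The genes that rose were mostly well expressed at both ages, and the genes that fell were mostly sparse at 10 weeks. Median levels over the 151 rises were 50.3 CPM at 10 weeks and 13.6 CPM at 5 weeks, and over the 90 falls 1.95 CPM at 10 weeks and 11.9 CPM at 5 weeks. The rises together held 1.96% to 3.61% of a library's counts at 10 weeks and 0.659% to 0.974% at 5 weeks. The falls held 0.0701% to 0.112% at 10 weeks and 0.318% to 0.567% at 5 weeks. These shares describe genes that were selected for the difference and are not a test of it. The gene lengths implied by the deposited tables had medians of 3235 bp for the rises, 2480 bp for the falls and 2840 bp for all tested genes. Across the tested genes, which are not independent, the log2 change and the length had a Spearman's rho of 0.0543.

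The fish of other ages, which had no part in these calls, gave further levels for the same genes. Scaled over all 20 libraries, the rises had median levels of 13.7, 18.7, 50.2 and 37.5 CPM at 5, 7, 10 and 14 weeks, and the falls 11.99, 8.11, 1.94 and 5.14 CPM. The share of counts held by the rises had medians of 0.775%, 1.17%, 2.70% and 1.85% at these ages. The falls held 0.357%, 1.05%, 0.0877% and 0.162%, so their summed share was highest at 7 weeks.

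Genes with an identity are given by rule: called, averaging 5 CPM or more at whichever age was higher, and with ranges of the ages that did not meet, which 133 rises and 50 falls met. The 2 largest rises and the 2 largest falls among them follow. Nfu_g_1_003038, with an implied length of 672 bp, had 33.7, 124, 63.8, 144 and 18.2 CPM in 10-week fish 1 to 5, against 1.49, 1.06, 0.0353, 0.751 and 0.946 CPM in 5-week fish 1 to 5. The lowest 10-week fish was far above the highest 5-week fish. The log2 fold change was 6.47 (SE 0.804, adjusted p = 0.0103 by edgeR, higher in 5 of 5 fish). The gene averaged 76.7 ± 55.2 CPM at 10 weeks and 0.858 ± 0.534 CPM at 5 weeks (SD, n = 5 each). At 7 weeks it was still at 0.963 ± 1.15 CPM, and at 14 weeks at 37.8 ± 28.9 CPM (SD, n = 5 each). Its call held in all 22 alternatives, with adjusted p from 2.19e-19 to 0.0339.

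Nfu_g_1_009544, of 1875 bp, had 0.585, 0.926, 18.4, 8.89 and 2.68 CPM in 10-week fish 1 to 5. In 5-week fish 1 to 5 it had 0.178, 0.0864, 0, 0.188 and 0 CPM, from 5, 3, 0, 4 and 0 reads. The 10-week fish themselves spanned a wide range, with fish 1 and 2 under 1 CPM. The log2 fold change was 6.10 (SE 1.15, adjusted p = 0.0278 by edgeR, higher in 5 of 5 fish), and its size is uncertain because no 5-week fish had more than 5 reads. The gene was at 1.48 ± 3.10 CPM at 7 weeks and at 0.528 ± 0.628 CPM at 14 weeks (SD, n = 5 each). The call was lost without 5-week fish 2, 5-week fish 4, 10-week fish 3 or 10-week fish 4, with limma-voom and in 4 other alternatives out of 22, over which the adjusted p spanned 3.11e-05 (DESeq2) to 0.233.

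Nfu_g_1_003310, of 1404 bp, had 2.03, 0.683, 0.435, 1.13 and 3.82 CPM in 10-week fish 1 to 5, against 425, 251.9, 86.7, 106 and 46.3 CPM in 5-week fish 1 to 5. All 5 fish of the older age were under 4 CPM and all 5 of the younger age were above 46 CPM. The log2 fold change was -6.82 (SE 0.837, adjusted p = 0.0103 by edgeR, lower in 5 of 5 fish). The gene averaged 1.62 ± 1.37 CPM at 10 weeks and 183 ± 156 CPM at 5 weeks (SD, n = 5 each). It was at 68.1 ± 49.5 CPM at 7 weeks and 9.67 ± 15.6 CPM at 14 weeks (SD, n = 5 each). Its call held in all 22 alternatives, with adjusted p from 5.37e-23 to 0.034.

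Nfu_g_1_022125, of 7964 bp, had 0.468, 0.0975, 0.474, 0.597 and 0.417 CPM in 10-week fish 1 to 5, against 3.45, 3.57, 1.24, 6.24 and 63.0 CPM in 5-week fish 1 to 5. The ages did not overlap, but 5-week fish 5 stood far above the other 5-week fish. The log2 fold change was -5.19 (SE 1.09, adjusted p = 0.0406 by edgeR, lower in 5 of 5 fish) and -3.10 without 5-week fish 5, where the call was kept. The call was lost without 5-week fish 2 or 4 or without any one of the 5 10-week fish, and in 12 of 21 alternatives altogether, over which the adjusted p spanned 0.0203 to 0.36. DESeq2 gave no adjusted p for this gene. The gene was at 6.21 ± 11.7 CPM at 7 weeks and 1.41 ± 1.05 CPM at 14 weeks (SD, n = 5 each).

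**Figure D2:**
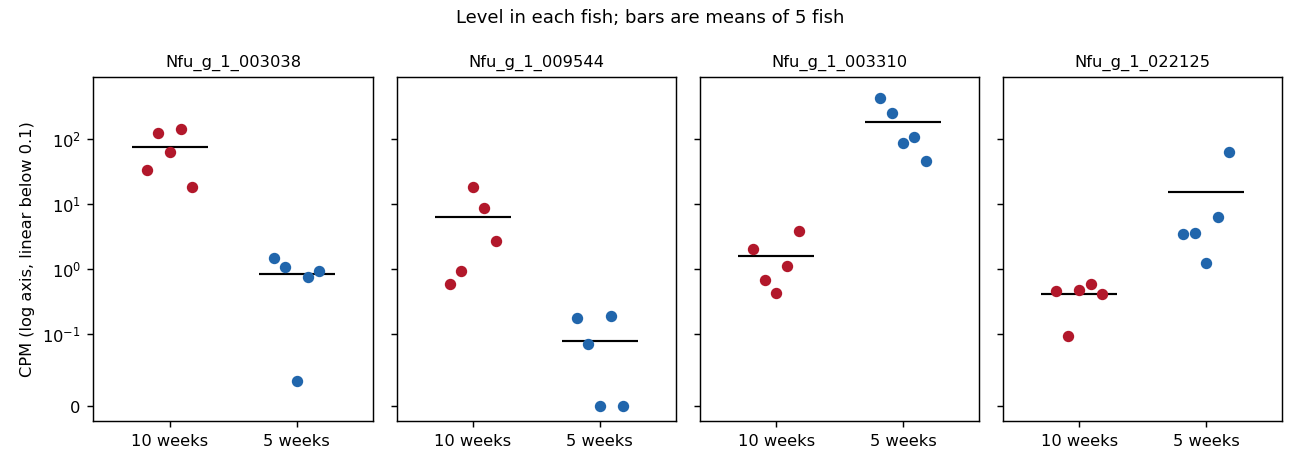
CPM of the 4 genes in each of 5 fish at 10 weeks (red) and 5 weeks (blue), on an axis that is logarithmic above 0.1 and linear below, with a bar at each mean. The ages do not overlap in any of the 4 genes, as the rule that chose them required. The level of 63.0 CPM in 5-week fish 5 carries the 5-week mean of Nfu_g_1_022125.

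By a limit of 3 reads, genes switched fully on or off between the ages were not found at this depth. No gene reached 1 CPM in all 10-week fish while having at most 3 reads in every 5-week fish (0 of 26739 identifiers, 0%), and none showed the reverse (0, 0%). Allowing 1 exception per age gave no gene on and 1 gene off. That gene had at most 3 reads in any 10-week fish and 119, 5.50, 1.27, 1.08 and 0.158 CPM in 5-week fish 1 to 5, so fish 1 held most of its reads, and it was removed by the filter on low counts before the test. It reached 1 CPM in no fish at 7 weeks (0) and in none at 14 weeks (0). With under 0.2 CPM as off, 1 different gene was switched off in every fish. Its levels were 0.0395 to 0.195 CPM at 10 weeks and 1.22 to 5.48 CPM at 5 weeks. The log2 fold change of that gene was -4.86 (adjusted p = 0.0103 by edgeR).

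A softer boundary at 1 CPM was crossed in every fish by few genes. A level of at least 1 CPM in all 10-week fish and in no 5-week fish was seen for 7 genes, and the reverse for 15 genes, against 11642 genes above 1 CPM in all 10 fish. Of the 7, 2 were called higher, and their 10-week means ran from 1.17 to 9.27 CPM. Of the 15, 10 were called lower, and their 5-week means ran from 1.29 to 15.5 CPM. The mean in the age below the boundary was 0.294 to 0.638 CPM for the 7 genes and 0.102 to 0.759 CPM for the 15. None of the 15 reached 1 CPM in all 14-week fish (0) and 5 reached it in no 14-week fish. At 7 weeks, 4 of the 15 reached it in all fish and 3 in none. Of the 7 genes, 1 reached 1 CPM in all 14-week fish and 0 in no 14-week fish. At 7 weeks, 3 of the 7 reached it in all fish and 3 in none.

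Genes that reached 1 CPM at only 1 of the ages mostly did so in a single fish, in either direction. Genes under this boundary could still hold reads, since 3 reads were worth at most 0.146 CPM at 10 weeks. Under 1 CPM in all 10-week fish and at or above it in at least 1 5-week fish were 1772 genes, and the reverse held for 316. In 983 of the 1772 genes only a single 5-week fish was above the boundary. Fish 1 accounted for 448 of these, fish 4 for 307, fish 2 for 158, fish 5 for 50 and fish 3 for 20. Of the 316 genes, 188 were above the boundary in a single 10-week fish, 96 of them in fish 3. That fish had the deepest library, and at equal depth also the most genes with a read among 10-week fish (19805). Whether depth played a part was not tested. The 448 genes of 5-week fish 1 had a median of 1.92 CPM and a highest value of 109 CPM in it, 32 of them reached 10 CPM, and they took 0.232% of its counts. Of these 448, 43 reached 1 CPM in a 7-week fish and 57 in a 14-week fish. The 307 genes of 5-week fish 4 were lower, with a median of 1.41 CPM and 1 gene above 10 CPM.

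Single 5-week fish also held most of the reads of many large falls. Among tested genes, 422 had a fitted fall of at least 4-fold and 51 of them were called, while 137 had a rise of at least 4-fold and 62 of them were called. Of the 371 large falls that were not called, 244 had more than 50% of their summed 5-week CPM in a single fish. A large fall that is not called tends to have a wide spread between fish, so this choice of genes favours that pattern. In the 51 called falls, the highest fish held a median of 37.9% of the summed 5-week CPM. Over all 371, whether or not a single fish held most of the CPM, the highest 5-week fish was fish 2 in 128. It was fish 1 in 91, fish 4 in 75, fish 5 in 63 and fish 3 in 14. Of the 75 large rises not called, 29 had more than 50% of their summed 10-week CPM in a single fish. In the 62 called rises, the highest fish held a median of 33.8%. At 16-fold or more there were 55 falls, 12 of them called, and 14 rises, 10 of them called.

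With all 10 fish, falls outnumbered rises among the sparsest genes and rises outnumbered falls in the 3 classes above them, a balance that depended on the fish and on the test. Classes were set by the mean over the 10 fish of CPM divided by gene length in kilobases (RPKM), so that genes could be compared per length. Under 1 RPKM, 7 genes rose and 22 fell among 3824. From 1 to 10 RPKM, 68 rose and 42 fell among 8383. From 10 to 100 RPKM, 61 rose and 23 fell among 2831, and from 100 to 1000 RPKM, 15 rose and 3 fell among 453. The share called was 0.758%, 1.31%, 2.97% and 3.97% in these 4 classes. Limma-voom showed the same climb, at 0.523%, 0.990%, 2.90% and 4.64%. Leaving out 5-week fish 5 gave 1.86%, 2.54%, 4.49% and 5.52%, again rising. With 10-week fish 4 left out, the share dropped from 0.389% at 10 to 100 RPKM to 0.221% at 100 to 1000 RPKM. In 3 analyses the share fell from the sparsest class to the next before rising. Those shares were 6.87%, 4.89%, 7.91% and 8.39% without 5-week fish 3. DESeq2 gave 9.65%, 8.20%, 12.9% and 16.6%, and all 20 libraries gave 7.22%, 6.61%, 10.5% and 12.4%. From 1 to 10 RPKM these analyses also had more falls than rises, with 167 higher and 243 lower without 5-week fish 3, 297 and 390 with DESeq2, and 196 and 358 with all 20 libraries. Without 5-week fish 1 and 2, falls outnumbered rises in every class with calls, with 19 higher and 42 lower from 10 to 100 RPKM and 6 higher and 9 lower from 100 to 1000 RPKM. The median SD of log2 CPM between fish was largest in the sparsest class, at 0.536 at 10 weeks and 0.761 at 5 weeks.

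The 122 most abundant genes, at 1000 RPKM and over, had no call in the edgeR test (0 higher, 0 lower), with 12 at an unadjusted p under 0.05. Other analyses called a few of them, among these 6 higher and 0 lower with all 20 libraries, 6 higher and 1 lower with DESeq2, and 2 higher and 0 lower without 5-week fish 3. The median log2 change was -0.27 under 1 RPKM and -0.02, 0.01, 0.14 and 0.10 in the next 4 classes. Leaving out each fish in turn, it stayed between -0.37 and -0.15 in the sparsest class and between 0.04 and 0.27 from 100 to 1000 RPKM. In the class above 1000 RPKM it ran from -0.06 to 0.27, so its sign depended on the fish. Without 5-week fish 1 and 2 together, the median was -0.03 in the sparsest class, -0.08 from 100 to 1000 RPKM and -0.19 above. With 2-fold as a limit and no test, 204 genes were higher and 821 lower under 1 RPKM, and 53 were higher and 29 lower from 100 to 1000 RPKM.

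**Figure D3:**
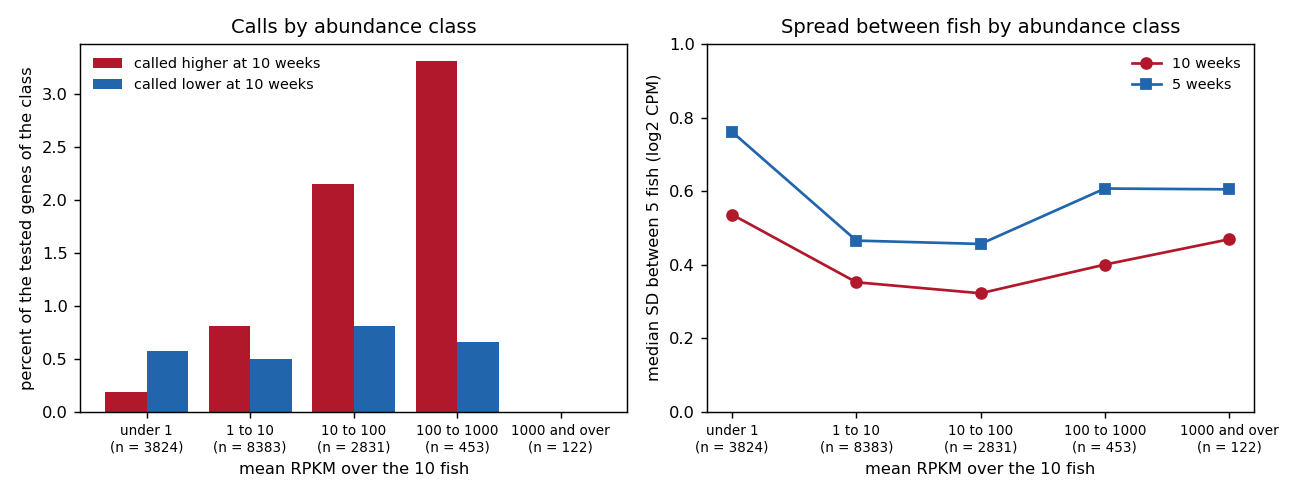
Left, percent of the tested genes of each abundance class (mean RPKM over 10 fish) called higher (red) or lower (blue) at 10 weeks; right, median SD of log2 CPM between 5 fish at 10 weeks (red circles) and at 5 weeks (blue squares). Calls higher climb to 3.31% at 100 to 1000 RPKM and stop above, and the 5-week spread is the larger one in every class.

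Counts were less concentrated in the top genes at 10 weeks. The 20 most abundant genes of a library took 29.2%, 24.0%, 21.2%, 21.2% and 28.6% of its counts in 10-week fish 1 to 5, against 32.2%, 36.2%, 32.2%, 33.5% and 31.2% in 5-week fish 1 to 5. Every 10-week fish lay below every 5-week fish. The mean was 24.9% ± 3.88 at 10 weeks and 33.1% ± 1.93 at 5 weeks (SD, n = 5 each), a difference of -8.21 percentage points (2-sided exact permutation p = 0.00794, the smallest that 5 against 5 fish can give; 0.0238 adjusted over 3 such measures). The difference was -7.29 to -9.30 points when each fish was left out in turn, with an exact permutation p of 0.0159 each time. That p is the smallest possible with 1 fish fewer. It was fixed in advance, because leaving out a fish cannot undo a complete separation. With the same 20 genes of highest mean CPM for every fish, it was -6.10 points (exact permutation p = 0.0159). The ages then overlapped, with 28.31% in 10-week fish 1 and 28.06% in 5-week fish 2. With the top 100 genes of each library it was -4.72 points (exact permutation p = 0.0159). There 10-week fish 1, at 51.4%, was above 5-week fish 1, at 50.65%.

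Fewer genes made up 50% of the counts at 5 weeks. In 10-week fish 1 to 5 this took 92, 102, 137, 138 and 104 genes, and in 5-week fish 1 to 5 it took 95, 72, 81, 78 and 85 genes. Only 10-week fish 1 fell below a 5-week fish, namely fish 1. The means were 115 ± 21.4 genes at 10 weeks and 82.2 ± 8.58 at 5 weeks (SD, n = 5 each; exact permutation p = 0.0159, adjusted over 3 measures 0.0238). The number of genes holding 90% of the counts did not separate the ages, at 2832 ± 460 genes at 10 weeks and 3012 ± 628 at 5 weeks (SD, n = 5 each; exact permutation p = 0.627).

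The breadth of detection, the third measure, was not found to differ with all fish. At an equal depth of 22529235 counts, 19096 to 19805 genes had a read at 10 weeks and 18667 to 20403 at 5 weeks (exact permutation p = 0.23, adjusted 0.23). The 5-week fish took both extremes, with fish 3 lowest and fish 1 highest. Without 5-week fish 3, the mean number of genes at 10 weeks minus that at 5 weeks was -706 (exact permutation p = 0.0317, not adjusted). Without any one of the other fish it was -552 to -272 (exact permutation p = 0.175 to 0.444). The lower p thus rested on leaving out the lowest 5-week fish.

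**Figure D4:**
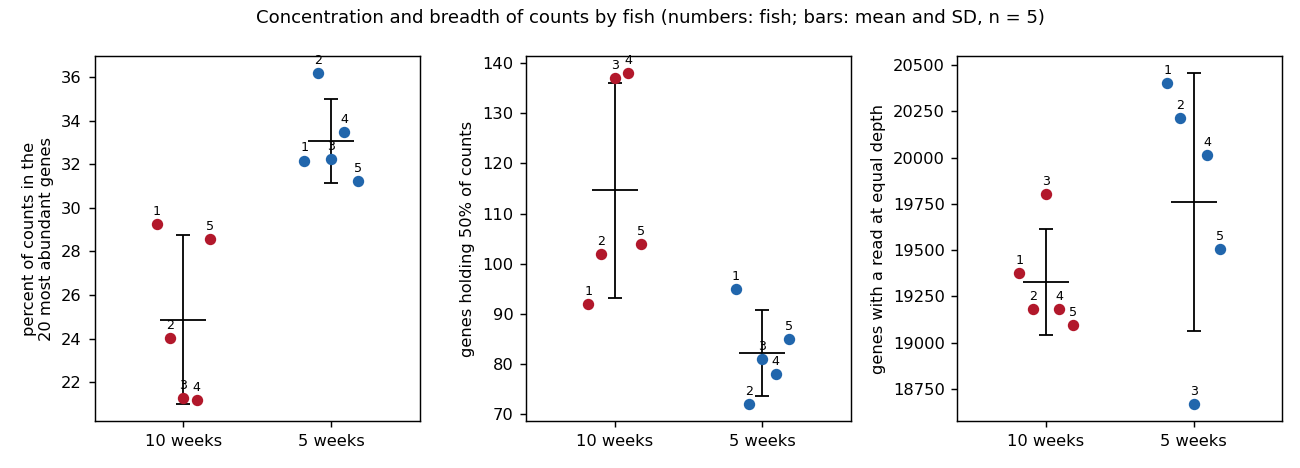
Percent of counts in the 20 most abundant genes, number of genes holding 50% of counts, and number of genes with a read at equal depth for each of 5 fish at 10 weeks (red) and 5 weeks (blue), with fish numbers and mean and SD; the vertical axes do not start at 0. The top-20 share of every 10-week fish is below that of every 5-week fish, and 5-week fish 3 is lowest in genes detected.

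By level per length, the edgeR test called none of the top genes. On this RPKM scale, 12 of the 20 most abundant genes were common to both ages, and 87 of the 100 most abundant. On the CPM scale, which does not correct for length, 3 of the 172 genes at 1000 CPM and over were called higher and 0 lower. Of the 28 genes in either top 20, none was called (0 higher, 0 lower in edgeR) and 6 had an unadjusted p under 0.05. All 20 libraries gave 2 higher and 0 lower among these 28, DESeq2 2 higher and 1 lower, and limma-voom 1 higher and 0 lower. Ranked by read share instead, the 20 genes highest at 5 weeks held 18.7% to 26.5% of counts at 10 weeks and 27.9% to 32.6% at 5 weeks, and 15 of the 20 were lower at 10 weeks. Genes picked for a high level at one age tend by that choice to be lower at the other. The 20 genes highest at 10 weeks, 14 of them the same, held 20.7% to 28.8% at 10 weeks and 23.6% to 32.4% at 5 weeks, and 9 of these were lower and 11 higher at 10 weeks.

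The largest drops of single genes came with wide spread between fish. The gene with the largest drop took 3.33% ± 0.90 of counts at 10 weeks and 5.42% ± 1.503 at 5 weeks (SD, n = 5 each; log2 fold change -0.67, adjusted p = 0.383 by edgeR). The next 3 differed by -1.55, -1.05 and -1.04 percentage points, with adjusted p of 0.335, 0.255 and 0.348. For the second of these 3 genes the ages did not overlap, at 1.41% to 2.08% at 10 weeks and 2.37% to 3.09% at 5 weeks. In the opposite direction, the third largest gain was of a gene with 0.257% to 0.773% of counts at 10 weeks and 0.0237% to 0.130% at 5 weeks, a log2 change of 2.66 (adjusted p = 0.0555 by edgeR). The largest gain that was called amounted to 0.284 percentage points (log2 fold change 1.59, adjusted p = 0.0465).

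Every fish of an age stood on its own side for more genes than the test called. All 10-week fish were above all 5-week fish for 372 genes (2.38% of those tested) and below them for 332 (2.13%). Without 5-week fish 3 these counts were 690 and 880 of 15971 genes tested, so the balance turned to the lower side. Leaving out 5-week fish 5 gave 655 and 558 of 15950, and leaving out 10-week fish 2 gave 749 and 553 of 16056. Fewer fish overlap less, so part of the increase in these counts comes with the smaller group. Of the called genes, 139 of the 151 rises and 70 of the 90 falls had this pattern, and 32 called genes overlapped. Another 233 upward and 262 downward genes separated the ages without being called. By abundance, the separated genes leaned down under 1 RPKM (32 up, 92 down) and up at 100 to 1000 RPKM (32 up, 6 down).

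The 10-week fish were more alike than the 5-week fish. Spearman's rho of log2 CPM across tested genes ran from 0.938 to 0.968 between 10-week fish (median 0.955, 10 pairs) and from 0.855 to 0.943 between 5-week fish (median 0.894, 10 pairs). Between the ages it had a median of 0.892 over 25 pairs. By the median, 5-week fish were thus about as unlike each other as they were unlike 10-week fish. Within the younger age, fish 1 and 2 (0.943) and fish 4 and 5 (0.938) matched best, at the low end of the 10-week range. Between fish, log2 CPM had a median SD of 0.389 at 10 weeks and 0.526 at 5 weeks, and 70.4% of genes had the larger SD at 5 weeks. Without any single fish this share was 64.4% to 76.0%. An SD of at least 2 on the log2 scale was seen for 77 genes at 10 weeks and 242 at 5 weeks. The share of counts that would have to move between genes to turn one library into another had a median of 17.2% between 10-week fish and 25.9% between 5-week fish, and of 25.7% between fish of different ages.

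Each fish was left out in turn and placed by the genes called without it that were also among the 15613 tested with all 10 fish. By these, 8 of 10 fish lay on the side of their own age for at least 64.8% of genes. A gene was counted for a fish when its level lay on the side of the fish's own age from the midpoint of the means of the other fish. The shares in 10-week fish 1 to 5 were 64.8%, 90.4%, 93.8%, 100% and 78.8%, over 176, 52, 65, 22 and 113 genes. In 5-week fish 1 to 5 they were 76.5%, 90.5%, 34.9%, 75.3% and 50.9%, over 153, 74, 936, 150 and 440 genes. The 5-week fish 3 thus lay on the 10-week side for most genes that separated the other 9 fish, and fish 5 was split evenly.

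The direction of the genes mattered for 5-week fish 3. It lay on the 5-week side for 56.0% of the 352 genes called higher without it and 22.26% of the 584 called lower, counting those tested with all 10 fish. Its median rho was 0.942 with 10-week fish and 0.907 with 5-week fish, and its closest match was a 10-week fish at 0.955. For 5-week fish 5 these medians were 0.918 with 10-week fish and 0.908 with 5-week fish. The other 3 5-week fish and all 10-week fish were closer to their own age.

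On the first principal component of the 10 libraries, with 34.8% of the variance, scores of the 10-week fish spanned 18.8 to 62.6. Those of 5-week fish 1 to 5 were -94.2, -88.0, 26.8, -29.7 and -10.7. Only fish 3 of the younger age fell within the 10-week range on this component. The second component, with 19.7%, set 5-week fish 4 and 5, at -89.5 and -41.4, against the others, of which the lowest was 5-week fish 3 at -15.7.

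**Figure D5:**
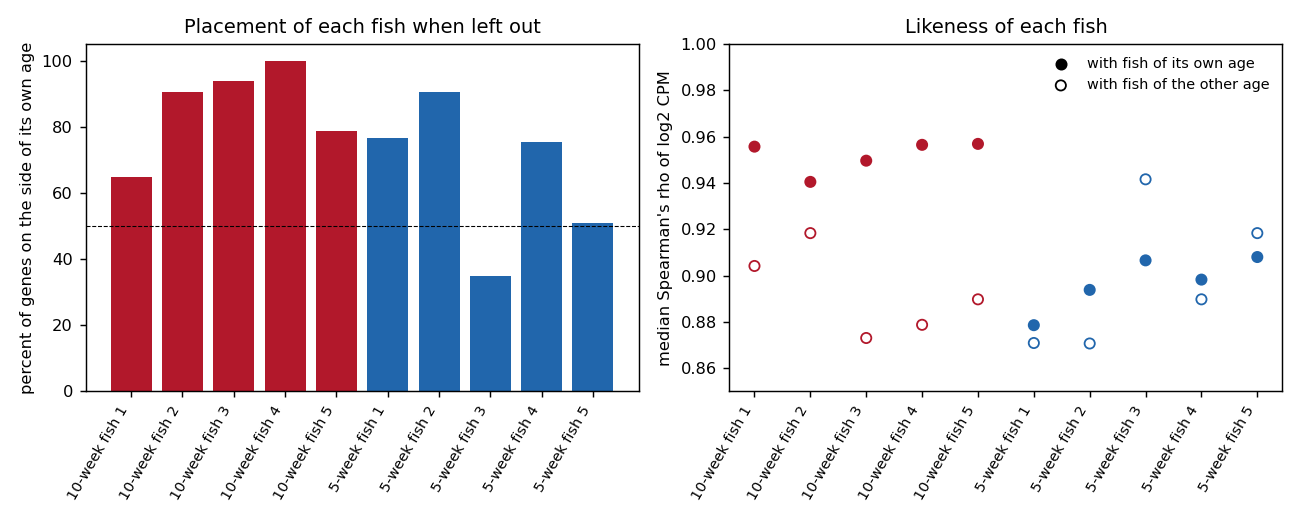
Left, percent of genes called without a fish for which that fish lies on the side of its own age (dashed line at 50%); right, median Spearman's rho of each fish with fish of its own age (filled) and of the other age (open). Red is 10 weeks and blue 5 weeks. The 5-week fish 3 is the only fish under 50% on the left, and 5-week fish 3 and 5 have the open circle above the filled one on the right.

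The number of called genes rested on which fish entered. Without 5-week fish 3, 355 genes rose and 648 fell (6.28% of 15971 tested), and all 241 genes called with it were among them in the same direction (151 and 90). The balance then leaned to falls. Of the 584 falls that were also tested with all 10 fish, 250 were under 1 RPKM. Without 5-week fish 1, 2, 4 or 5 the totals were 153, 74, 151 and 453, and without 10-week fish 1 to 5 they were 179, 53, 65, 22 and 115. Without 5-week fish 1 and 2 together, 54 rose and 121 fell. The difference in top-20 share kept its direction without each fish in turn, 5-week fish 3 included. Complete separation of all 10 fish fixed this, and the exact permutation p given above, in advance.

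The choice of test and libraries also moved the count and its balance. With all 20 libraries in one fit, which changed the filter, the scaling and the estimate of spread together (16475 genes tested), 421 genes rose and 891 fell (7.96%), including 145 of the 151 rises and 86 of the 90 falls. DESeq2 called 621 higher and 882 lower (9.68% of 15533 genes with an adjusted p). By contrast, limma-voom gave 144 and 63 (1.33%), and limma-voom with a separate weight for each age gave 135 and 71 (1.32%). The edgeR and limma-voom tests of all 10 libraries had more rises than falls, as did the deposited RPKM with 128 and 27. With all 20 libraries, with DESeq2, without 5-week fish 3 and without 5-week fish 1 and 2, falls outnumbered rises.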

How the data were processed

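Liver RNA of male GRZ killifish was sequenced from TruSeq RNA v2 libraries, which do not mark strand, per the labels' protocols. The submitters' processing notes name STAR 2.4.1d, featureCounts 1.4.6-p4 and CASAVA 1.8.2 without their settings, and the build and annotation were not given in the sources used here. In the deposit, the authors gave raw read counts per gene and a table of RPKM values. The deposited RPKM were divided by totals that run through a cycle of 25 numbers rather than by each library's own total, as tested on the table, and departed from a library's own RPKM by up to 2.05-fold. They served for gene lengths and for an alternative test only.

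Counts of the 10 libraries were filtered by filterByExpr, scaled by TMM and tested across all genes with edgeR 4.0.16 quasi-likelihood tests in R 4.3.3 (no covariates, no fold threshold). Only these 10 libraries were fitted, so that the other ages did not enter the estimate of spread. SE is the log2 fold change over the square root of F. Log2 CPM used a prior count of 2. Per-fish measures were tested by exact permutation of 5 against 5 fish in scipy 1.17.1. DESeq2 1.42.0 and limma 3.58.1 gave alternatives, and the edgeR script was tested on simulated data. The simulation gave both ages the same spread for each gene, so it did not cover the wider spread at 5 weeks. Fish are numbered in accession order, which pairs nothing. All 20 pairs of fish within an age differed by more than sampling noise (smallest chi-square per degree of freedom 86.2). None was thus a repeat run of another library of its own age. Pairs across the ages were not compared in this way, and each library was counted as 1 sample. Whether any libraries shared an animal cannot be told from this comparison. Bounds from 3 reads cover counting error only. Named genes followed the rule given with them. The comparison, the lists and the rules were chosen with earlier results of these data known. Gene lists by symbol, cell type markers included, could not be applied. Reads of near-identical copies or of overlapping or antisense genes cannot be separated in these counts.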

Additional observations from a re-analysis of the deposited data

Results flagged for a closer look

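In Nfu_g_1_022125 the level of 63.0 CPM in 5-week fish 5 stood apart from the other 5-week fish, its gap to the next fish being 0.919 of the range of the 5 fish, above the limit of 0.71 for 5 values. The limit flags about 1 in 20 groups of normally distributed values. That rate need not hold here, because the gap was taken on CPM without logarithms and the gene was named for its large fall.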

How the results depend on the processing

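No paired analysis was possible because the fish numbers are in accession order and link no fish across ages. Of the main counts of 151 genes higher and 90 lower, DESeq2 gave 621 and 882, all 20 libraries 421 and 891, deposited RPKM 128 and 27 with a pseudocount of 0.1 and 97 and 17 with a pseudocount of 1, and leaving out 5-week fish 1 and 2 gave 54 and 121. Leaving out each fish in turn gave 14 to 355 higher and 8 to 648 lower. The other 7 settings for scaling, filtering, limma and rebuilt RPKM moved neither count by more than 1.5 times; library totals alone gave 131 and 78, and no filter 126 and 70. With a pseudocount of 0.1, the deposited RPKM set the median log2 change of all tested genes at 0.11. Rebuilt RPKM with the same pseudocount gave -0.06 and the main analysis -0.05. The changes by the deposited RPKM were thus shifted upward. Genes separating every fish numbered 408 to 749 upward and 382 to 880 downward with a fish left out, and 601 and 674 without 5-week fish 1 and 2, since fewer fish overlap less. Switched-off genes numbered 1 instead of 0 with under 0.2 CPM as off, and 1, a different gene, with 4 of 5 fish. With a fish left out they numbered 0 to 1. Switched-on genes were 0 in all 14 alternatives. The share called at 100 RPKM and over was 3.13%, and in settings added after seeing the data 10.8% with all 20 libraries, 6.96% without 5-week fish 3 and 14.3% with DESeq2. The difference in genes detected ranged from -706 to -272 with a fish left out. The number of genes holding 90% of counts differed by -180, against 32.4 for 50% of counts, which spanned 26.55 to 38.05 with a fish left out. The median left-out fish had 77.6% of genes on its own side, and 70.8% with genes chosen by a 2-fold limit.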
